A study of Mus musculus with 2 samples.

Results

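The genes described here encode the synaptic vesicle and the machinery that releases its content. They are 51 named genes of the 43437 in the gene table, taken by symbol and placed in 4 roles, namely synaptotagmins (calcium sensors and relatives), vesicle proteins with the Rab3 GTPases, SNAREs with their regulators, and active zone and priming proteins. RNA was sequenced from the telencephalon and from the whole body of wild-type mouse fetuses of the outbred ICR stock at E12.5, with 1 library each. The cerebral cortex and the basal ganglia arise from the telencephalon. The labels state neither how many fetuses were pooled nor whether the head was part of the whole body, whose library can hold RNA of brain, spinal cord and peripheral neurons.

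Neurons store transmitter in small vesicles that dock at the active zone, a scaffold on the presynaptic membrane. Fusion is driven by SNARE proteins, with Vamp on the vesicle and syntaxin and Snap25 on the plasma membrane. It is primed by Munc13 and RIM proteins and triggered by calcium through synaptotagmins. The spent SNARE complexes are then taken apart by Nsf with its adaptors, encoded by Napa and Napb among others. Several of these proteins have relatives that serve secretion in most other cells. At this stage most telencephalic cells are dividing progenitors or young neurons that have few synapses.

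Values are FPKM, fragments divided by the length of the transcript and by the size of the library, so levels of different genes can be compared. From the steps between low values, depth was estimated as 22700000 fragments in telencephalon against 29200000 in whole body. One fragment on a 2 kb transcript then equals 0.0264 FPKM in telencephalon and 0.0204 FPKM in whole body. A gene counted as measured at 1 FPKM or more in either library, and each difference is log2 of the telencephalon FPKM + 1 divided by the whole-body FPKM + 1. A gene was counted as higher or lower when this ratio passed 2-fold, while folds given for single genes are plain ratios of FPKM. Since each group is 1 library, replicate error is unknown and nothing was tested, so each value describes these libraries only. In bulk RNA, fewer cells of a type and less RNA per cell cannot be told apart.

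Both libraries carried the markers of their labels. Of 8 telencephalic transcription factor genes 7 passed 2-fold upward (median log2 ratio 4.09, summed level 885 FPKM in telencephalon and 46.2 in whole body). All 8 markers of liver, connective tissue, muscle, skin, blood and vessels were lower, with a summed level of 13.9 FPKM in telencephalon and 2759 in whole body, none of them at 0. Of 9 general neuron markers 8 were higher (median log2 ratio 1.77, summed level 1179 FPKM in telencephalon and 333 in whole body), and of 7 progenitor markers 6 were higher. Of 9 measured markers of spinal and peripheral neurons 7 were lower and 1, Isl1, was higher (summed level over the list 55.4 FPKM in telencephalon and 124 in whole body, with none at 0). The part of these cell types in the results below was not tested.

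Release machinery genes were on the whole higher in telencephalon, and those known mainly from neurons stood apart from those used by most cells. Of the 51 genes 48 were measured. Of these 24 passed 2-fold upward in telencephalon, a share to be read against 9.39% among all 14987 measured genes. Another 5, or 10.4%, were lower by 2-fold or more, against 21.2% of all measured genes. The median log2 ratio was 1.01, whereas that of all measured genes was -0.16. Summed over the 51 genes the level was 1021 FPKM in telencephalon and 506 in whole body. The shares of all measured genes, 9.39% higher and 21.2% lower, are also the reference for the counts by role, class and list below.

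**Figure D1:**
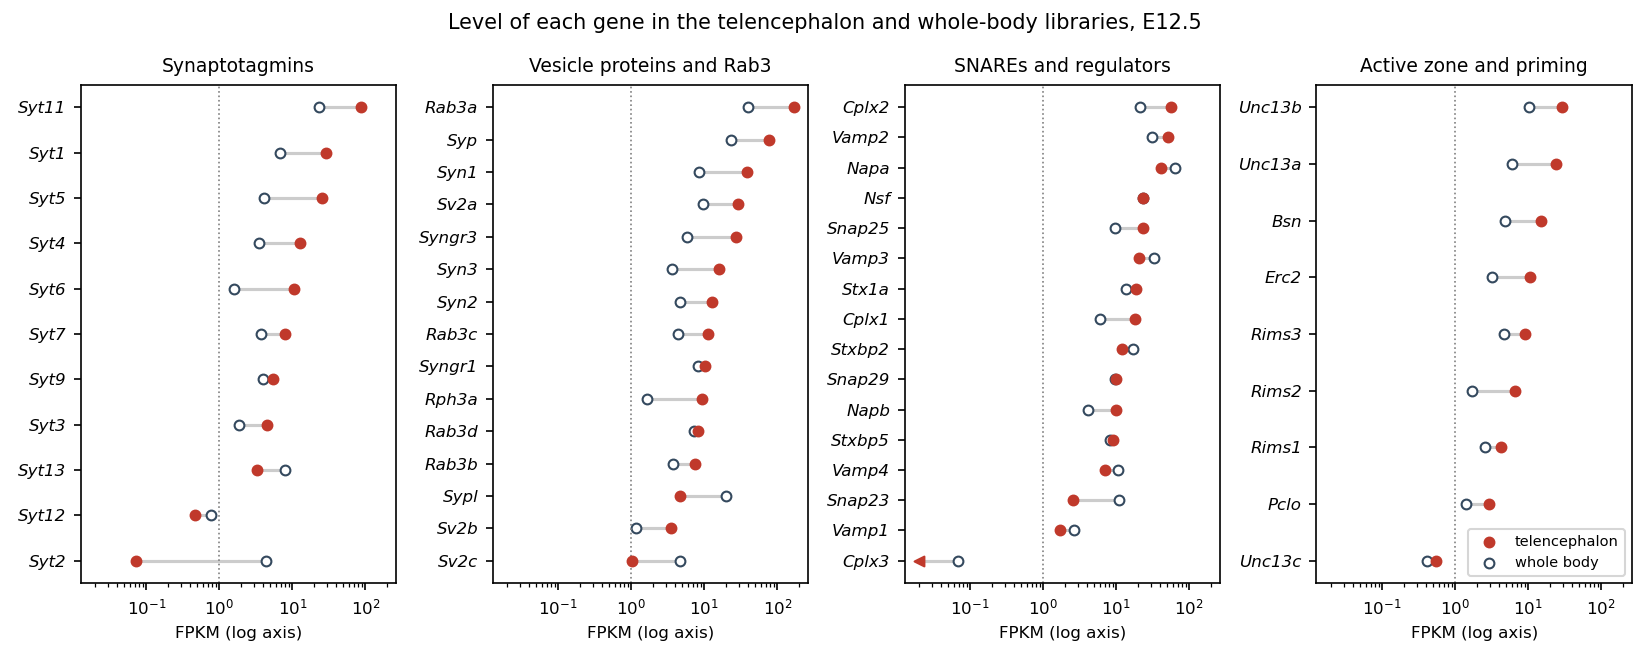
Level of each of the 51 genes in FPKM (log axis) in the telencephalon library (filled) and the whole-body library (open), 1 library each, by role; the dotted line marks 1 FPKM and the arrowhead a value of 0. Rab3a was the highest in telencephalon at 169 FPKM, and the longest line is that of Syt2, at 0.0722 FPKM in telencephalon against 4.28 in whole body.

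The order of levels differed between the libraries. In telencephalon Rab3a led with 169 FPKM, followed by Syt11 with 86.7, Syp with 77.9, Cplx2 with 56.0, Vamp2 with 52.0 and Napa with 41.1. In whole body Napa led with 63.2 FPKM, followed by Rab3a with 40.2, Vamp3 with 32.5, Vamp2 with 31.0 and Syp with 23.2. The place of Syp rests largely on isoforms under 500 bases, which gave 71.2% of its level in telencephalon and 70.9% in whole body. Sypl and Snap23, relatives of Syp and Snap25 in non-neuronal cells, were in place 39 and 45 of 51 in telencephalon and in place 9 and 12 in whole body. Cplx3, Syt12 (0.458 FPKM in telencephalon and 0.763 in whole body) and the cerebellar priming factor gene Unc13c (0.558 in telencephalon and 0.411 in whole body) were under 1 FPKM in both libraries. Cplx3, a complexin known from the retina, was listed at 0 in telencephalon, against 0.0678 FPKM (about 5 fragments) in whole body.

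Among the 10 measured synaptotagmins 5 were higher by 2-fold or more and 2 lower (median log2 ratio 1.29). Of all measured genes 9.39% were higher and 21.2% lower, so the lower share was near that of all genes. Syt1, the fast calcium sensor of forebrain synapses, was at 29.1 FPKM in telencephalon against 6.76 in whole body, 4.31-fold higher (95% exact interval 3.99 to 4.65). Such intervals take their width from the estimated fragments, are centred on the FPKM ratio and cover counting error only. They do not cover how reads were divided over isoforms of different length. The depth-scaled fragments themselves gave ratios outside them for 15 of 48 genes, and by over 1.5 times for 3 of these, Syt2, Syngr1 and Sv2c. Syt5 had 25.4 FPKM in the telencephalon library and 4.09 in whole body, 6.21-fold higher (interval 5.26 to 7.36). Syt6 had the largest plain ratio among the higher genes, 6.66 (10.4 FPKM in telencephalon and 1.56 in whole body, 5.18-fold by fragments), and Syt5 the largest on the FPKM + 1 scale. The fast sensors therefore did not lead the family in level. Syt11, a relative of Syt4 whose first calcium-binding domain carries a substituted residue, was the most abundant synaptotagmin in both libraries. It made up 46.7% of the summed synaptotagmin FPKM in telencephalon (86.7 FPKM) and 37.4% in whole body (22.9 FPKM). Syt4, found on dense-core vesicles, reached 12.6 FPKM in telencephalon, with 3.44 in whole body.

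The remaining measured synaptotagmins were within 2-fold on the FPKM + 1 scale or lower in telencephalon. Syt3 (4.5 FPKM in telencephalon and 1.83 in whole body) and the slow calcium sensor Syt7 (7.89 in telencephalon and 3.76 in whole body) fell short of 2-fold, with log2 ratios of 0.96 and 0.90. By fragments the plain ratio was 2.82 for Syt3, against 2.47 by FPKM, and 1.55 for Syt7, against 2.09 by FPKM. Syt9, which also serves endocrine cells, was at 5.38 FPKM in telencephalon against 3.95 in whole body. Syt2, the fast sensor of hindbrain, spinal and neuromuscular synapses, had 0.0722 FPKM in the telencephalon library and 4.28 in whole body, about 9 fragments in telencephalon and 191 in whole body. Of its whole-body FPKM 77.4% came from isoforms under 500 bases. Over isoforms of 500 bases or more Syt2 was 13.4-fold lower (0.0722 FPKM in telencephalon and 0.966 in whole body), in place of 59.4-fold over all isoforms and 16.6-fold by fragments. Syt13, which lacks calcium-binding residues and is also made by pancreatic islet cells, reached 3.26 FPKM in telencephalon, with 7.98 in whole body. Syt1 and Syt2, the closest related pair of fast sensors, thus lay on opposite sides.

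Vesicle proteins formed the role with the most genes past 2-fold, 10 of 15 higher and 2 lower (median log2 ratio 1.28). All 3 synapsins, which tether vesicles in the reserve pool, were higher in telencephalon. Syn1 was at 37.9 FPKM in telencephalon against 8.53 in whole body (4.44-fold, interval 4.09 to 4.83). Syn3, the synapsin of young neurons, had 15.9 FPKM in the telencephalon library and 3.62 in whole body, and Syn2 was at 12.6 in telencephalon and 4.62 in whole body. Timp3 on the other strand shares 14.1% of the exon bases of Syn3, and the kit does not mark strand. Timp3 itself was lower in telencephalon (2.65 FPKM against 27.2 in whole body).

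Syp encodes synaptophysin, one of the most abundant membrane proteins of the vesicle. It reached 77.9 FPKM in telencephalon, with 23.2 in whole body, 3.35-fold higher. Isoforms under 500 bases made up 71.2% of this in telencephalon and 70.9% in whole body, so its level rests largely on short isoforms. Most of that was Syp-206, of 433 bases, which the annotation classes as a processed transcript and not as protein-coding. Syp-206 held 57.0% of Syp in telencephalon and 69.1% in whole body, on about 100 and 53 fragments. The antisense gene Gm14703, at 4.38 FPKM in telencephalon against 1.57 in whole body, shares 16.8% of the exon bases of Syp. Over longer isoforms Syp was at 22.5 FPKM in telencephalon against 6.75 in whole body, 3.32-fold higher. Of the synaptogyrins, relatives of synaptophysin, Syngr3 had 27.2 FPKM in the telencephalon library and 5.85 in whole body, and Syngr1 was at 10.1 in telencephalon and 8.09 in whole body. By fragments Syngr1 was 3.01-fold higher, against 1.24-fold by FPKM.

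The SV2 glycoproteins, vesicle membrane proteins with the fold of a transporter, split within the family. Sv2a reached 29.3 FPKM in telencephalon, with 9.64 in whole body, and Sv2b was at 3.49 in telencephalon and 1.16 in whole body. Sv2c, which the adult brain makes in few regions, was at 1.04 FPKM in telencephalon against 4.66 in whole body, 4.48-fold lower. By depth-scaled fragments (about 124 in telencephalon and 408 in whole body) it was 2.55-fold lower, which on the FPKM + 1 scale is just short of 2-fold. Sv2c thus made up 3.07% of the summed SV2 FPKM in telencephalon and 30.1% in whole body. Syt2, Syt13 and Sv2c were lower, as were 7 of 9 measured spinal and peripheral neuron markers, with Isl1 higher and Th within 2-fold, and all 8 non-neural markers. The part of those cells in the result was not tested.

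The GTPase Rab3a, which marks vesicles for docking, had 169 FPKM in the telencephalon library and 40.2 in whole body (4.22-fold, interval 3.96 to 4.5). It took 86.2% of the summed Rab3 FPKM in telencephalon and 72.3% in whole body. Rab3c reached 11.4 FPKM in telencephalon, with 4.36 in whole body, and Rab3b was at 7.53 in telencephalon and 3.77 in whole body. Rab3d, known from exocrine and other secretory cells, was at 8.14 FPKM in telencephalon against 7.23 in whole body, the smallest ratio among the Rab3 genes. Rph3a, which encodes the Rab3 effector rabphilin, had 9.41 FPKM in the telencephalon library and 1.65 in whole body, 5.71-fold higher (interval 4.86 to 6.74).

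SNAREs and their regulators had the smallest share of genes past 2-fold, with 4 of 15 measured genes higher, 1 lower and a median log2 ratio of 0.04. This role also holds most of the genes used by all cells. Among its 7 measured neuronal genes 4 were higher (median 1.09), and among its 7 broadly used genes none was (median -0.51). Snap25, the plasma membrane SNARE of neurons, reached 23.2 FPKM in telencephalon, with 9.55 in whole body (2.43-fold, or 1.99-fold by fragments, which ends its place among the genes past 2-fold). Its relative Snap23, which serves the same step in most other cells, was at 2.57 FPKM in telencephalon against 11.1 in whole body, 4.31-fold lower (interval 3.50 to 5.35). Snap29, a SNARE of fusion inside the cell, was in telencephalon 1.03-fold its level of 9.73 FPKM in whole body.

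The vesicle SNARE Vamp2 was within 2-fold, with 52.0 FPKM in telencephalon and 31.0 in whole body (1.68-fold, or 1.92-fold by fragments). Vamp3, the cellubrevin of most cells, had 20.8 FPKM in the telencephalon library and 32.5 in whole body, and Vamp4 of the Golgi was at 7.08 in telencephalon and 10.5 in whole body. Vamp1, which adult spinal cord and brainstem use, was low in both, with 1.73 FPKM in telencephalon and 2.66 in whole body. The syntaxin Stx1a reached 18.7 FPKM in telencephalon, with 13.8 in whole body, a ratio that hides a difference between isoforms described below. The complexin genes Cplx1 and Cplx2, whose products hold and activate assembled SNAREs, were both higher. Cplx2 was at 56.0 FPKM in telencephalon against 21 in whole body, and Cplx1 was at 18.3 in telencephalon and 6.02 in whole body.

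Genes that act on SNAREs in every cell were within 2-fold between the libraries, and the brain form Napb was higher. Nsf, the ATPase that takes spent SNARE complexes apart, had 23.7 FPKM in the telencephalon library and 23.2 in whole body. Its adaptor Napa reached 41.1 FPKM in telencephalon, with 63.2 in whole body. The brain form of that adaptor, Napb, was at 9.93 FPKM in telencephalon against 4.13 in whole body. The inhibitor tomosyn, encoded by Stxbp5, had 8.95 FPKM in the telencephalon library and 8.35 in whole body. Stxbp2, a Munc18 protein of epithelial and blood cells, reached 12.1 FPKM in telencephalon, with 16.9 in whole body (1.40-fold lower, or 1.84-fold by fragments). The retained introns Stxbp2-203 and Stxbp2-208 gave 21.7% and 26.0% of its level in telencephalon, on about 18 and 30 fragments. In whole body they gave 6.29% and 5.92%.

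Each of the 8 measured active zone and priming genes had a log2 ratio above 0, and 5 were at least 2-fold higher (median 1.45). By FPKM the priming factor genes Unc13a and Unc13b were the most abundant of them. Unc13a was at 24.3 FPKM in telencephalon against 6.10 in whole body (3.98-fold, or 2.79-fold by fragments). Unc13b, which is also active outside the brain, was at 29.5 in telencephalon and 10.2 in whole body (2.90-fold, or 2.39-fold by fragments). An isoform of 768 bases gave 35.1% of Unc13b in telencephalon, on about 102 fragments, and 21.3% in whole body. For Unc13a an isoform of 721 bases gave 23.9% in telencephalon, on about 51 fragments, and 13.3% in whole body. The large scaffold gene Bsn had 15.2 FPKM in the telencephalon library and 4.89 in whole body (3.10-fold, or 3.39-fold by fragments), and its relative Pclo was at 2.96 in telencephalon and 1.43 in whole body. Pclo appears on a further row of the table, with 0.307 FPKM in telencephalon and 0.0590 in whole body, which was not used. Erc2, a scaffold that binds RIM proteins, reached 10.8 FPKM in telencephalon, with 3.23 in whole body.

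The RIM genes, whose products link Rab3 and calcium channels to the active zone, were higher to different degrees. Rims2 was at 6.69 FPKM in telencephalon against 1.69 in whole body (3.97-fold, interval 3.40 to 4.65). Rims1 had 4.21 FPKM in the telencephalon library and 2.55 in whole body, and the short form Rims3 was at 9.19 in telencephalon and 4.71 in whole body. Of these 3 genes Rims2 passed 2-fold on the FPKM + 1 scale as deposited, and Rims3 passed it too after rescaling to TPM. By fragments Rims1 was 2.16-fold higher, against 1.65-fold by FPKM, and Rims3 was 1.85-fold higher, against 1.95-fold by FPKM.

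By paralog class the contrast was between neuronal and broadly used genes, with the classes set when earlier results of these data were known. Among 31 measured neuronal genes 21 were higher by 2-fold or more and 2, Syt2 and Sv2c, were lower (median log2 ratio 1.37). Of 9 broadly used genes none was higher and 2, Sypl and Snap23, were lower (median -0.51), a lower share close to the 21.2% of all measured genes, whose median was -0.16. The 8 genes of mixed use lay between, with 3 higher, 1 lower and a median of 0.87. Neuronal genes took 71.6% of the summed FPKM of the 51 genes in telencephalon and 49.4% in whole body. Broadly used genes took 12.7% in telencephalon and 38.3% in whole body. The general neuron markers, given above, had a median of 1.77.

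**Figure D2:**
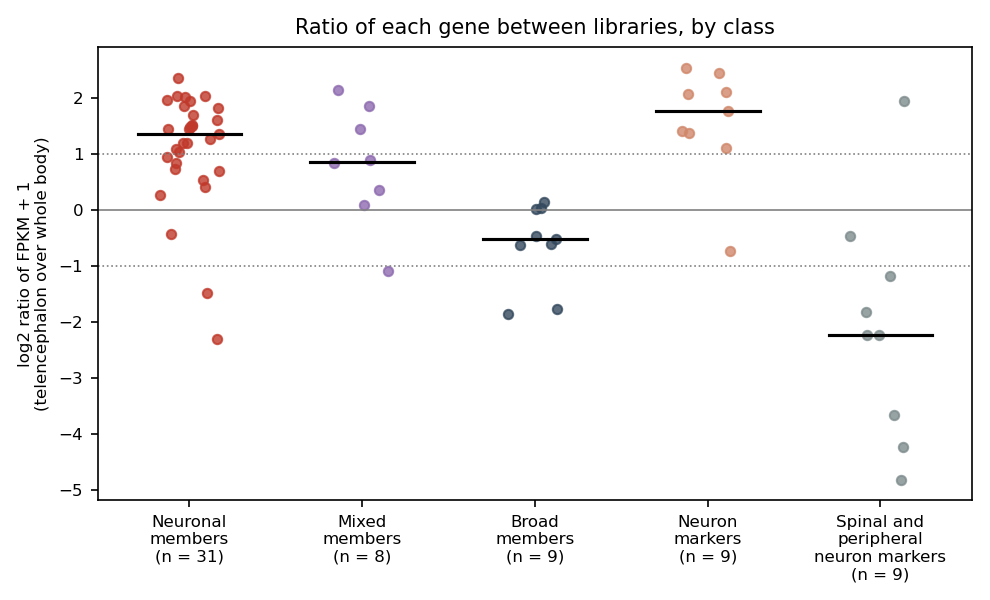
Log2 ratio of FPKM + 1 (telencephalon over whole body) for each measured gene by class, beside 2 lists of marker genes; each point is a gene, bars are medians and dotted lines mark 2-fold. The neuronal genes centre on 1.37 and the broadly used ones on -0.51, and Syt2 is the lowest of the 51 genes at -2.30.

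In each of 6 pairs of relatives the ratio of the neuronal gene to the more widely used one was larger in telencephalon. The pairs were chosen with earlier results of these data known, so their shared direction is a description only. The second gene was broadly used in each pair except that of Unc13b, which is of mixed use. Snap25 was 9.01 times the level of Snap23 in telencephalon and 0.862 times in whole body, a change of 2.96 on the log2 scale of FPKM + 1 (interval 2.66 to 3.26). The ratio of Syp to Sypl was 16.6 in telencephalon and 1.19 in whole body (log2 change 3.56, interval 3.33 to 3.79). Sypl itself, the synaptophysin relative of many tissues, reached 4.69 FPKM in telencephalon, with 19.6 in whole body. These were the pairs with the largest changes, and in both the ubiquitous gene was lower as well as the neuronal one higher.

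The other pairs changed less. The ratio of Rab3a to Rab3d was 20.8 in telencephalon and 5.56 in whole body (log2 change 1.90). The ratio of Napb to Napa was 0.242 in telencephalon and 0.0653 in whole body (1.70), so the ubiquitous adaptor was the more abundant in both libraries. The ratio of Vamp2 to Vamp3 was 2.51 in telencephalon and 0.954 in whole body (1.35). Unc13a and Unc13b, of which the second is also found in brain, had a ratio of 0.823 in telencephalon and 0.600 in whole body (0.38, or 0.19 by fragments), the smallest change.

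**Figure D3:**
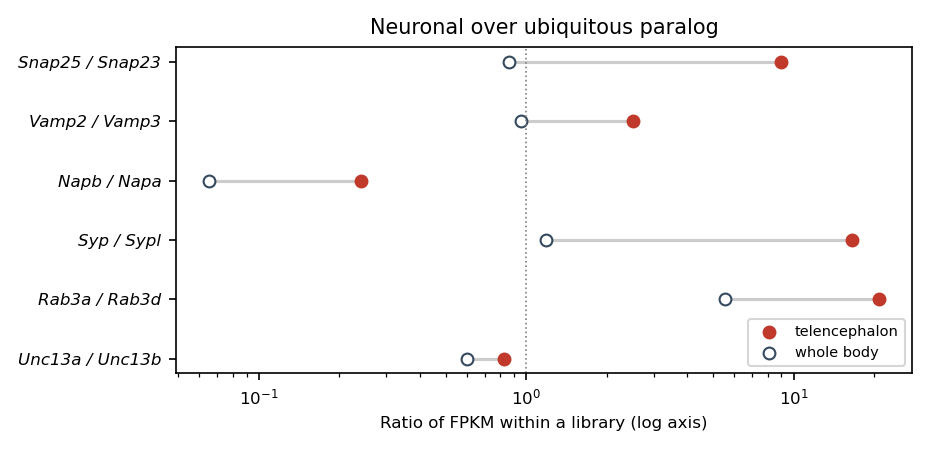
Ratio of FPKM of the neuronal to the ubiquitous relative (log axis) within the telencephalon library (filled) and the whole-body library (open); the dotted line marks equal levels. For Snap25 and Vamp2 the ratio lies above 1 in telencephalon and below 1 in whole body, and for Napb and Unc13a it lies below 1 in both. Levels of Syp include isoforms under 500 bases, without which its whole-body ratio lies below 1. Unc13b is a gene of mixed use.

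Isoform shares were compared for 21 of the genes, those with several isoforms and a sum of 5 FPKM or more in both libraries. In 6, namely Snap25, Syn1, Unc13a, Stx1a, Syngr1 and Stxbp2, the share of an isoform differed by 20 points or more, against 16.2% of all 6326 genes compared in this way. All isoform values are the authors' division of reads over annotated isoforms and were not checked on reads. Snap25 has a pair of alternative exons, of which a transcript uses either one, and the choice changes part of the protein. In GRCm38 the upstream exon lies at chr2:136769743-136769860 and the downstream exon at chr2:136770057-136770174, both on the plus strand. The exons are shown because the isoforms that carry them differed between the libraries. They have 118 bases each and differ at 31, which are in capitals, with sequence from the GENCODE transcripts:

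Snap25 upstream exon: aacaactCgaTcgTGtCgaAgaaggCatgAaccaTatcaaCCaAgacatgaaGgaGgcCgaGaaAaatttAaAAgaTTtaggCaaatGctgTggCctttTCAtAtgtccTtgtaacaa

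Snap25 downstream exon: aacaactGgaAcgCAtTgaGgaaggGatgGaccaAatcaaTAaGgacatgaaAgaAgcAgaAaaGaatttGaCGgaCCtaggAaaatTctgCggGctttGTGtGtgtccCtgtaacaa

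The isoform with the upstream exon (Snap25-202) held 45.3% of Snap25 in telencephalon and 21% in whole body. It was at 10.5 FPKM in telencephalon against 2.0 in whole body, 5.24-fold higher, on about 162 fragments in telencephalon and 41 in whole body. The isoform with the downstream exon (Snap25-201) had 12.7 FPKM in the telencephalon library and 7.52 in whole body, 1.68-fold higher. These isoforms also differ in annotated length, 1014 and 2116 bases, and at the 3′ end, so the shares rest on how fragments were divided over that end as well as on the exon.

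For Stx1a the isoform classes went opposite ways. The coding isoform Stx1a-201 reached 13.9 FPKM in telencephalon, with 4.29 in whole body, 3.24-fold higher. Stx1a-204, which the annotation classes as a target of nonsense-mediated decay, was at 3.69 FPKM in telencephalon against 8.58 in whole body, and its share was 19.8% in telencephalon and 62.1% in whole body. It differs within the coding part by 83 extra bases at the start of an exon, at chr5:135048911-135048993 on the plus strand of GRCm38. They are shown because their inclusion separates the isoforms:

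Stx1a extension: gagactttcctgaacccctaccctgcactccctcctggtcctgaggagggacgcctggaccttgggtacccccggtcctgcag

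In Unc13a an isoform was assigned reads in telencephalon only. Unc13a-208 was given 6.70 FPKM there, 27.6% of the gene and about 809 fragments, and about 0 fragments in whole body, a split that rests wholly on that division. Unc13a-201 held 36.0% in telencephalon and 73.5% in whole body. The coding part of Unc13a-208 holds an exon of 57 bases that Unc13a-201 lacks, at chr8:71633439-71633495 on the minus strand of GRCm38, and it also ends earlier. The exon is shown as the coding difference:

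Unc13a extra exon: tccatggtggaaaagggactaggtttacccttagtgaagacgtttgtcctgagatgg

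Unc13a overlaps Colgalt1 on the other strand over 3.92% of its exon bases. Colgalt1 had 27.4 FPKM in the telencephalon library and 63.7 in whole body, and its part in the isoform values was not tested.

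For Syngr1 the isoform of 4180 bases (Syngr1-201) reached 7.41 FPKM in telencephalon, with 1.76 in whole body, 4.21-fold higher, on about 647 fragments in telencephalon and 199 in whole body. The isoform of 819 bases (Syngr1-202) was at 2.65 FPKM in telencephalon against 6.08 in whole body, on about 29 fragments in telencephalon and 89 in whole body. The gene's 1.24-fold FPKM ratio is the sum of these isoforms. For Syn1, whose isoforms differ at the coding 3′ end, Syn1-202 held 57.3% in telencephalon and 37.0% in whole body, and Syn1-201 held 42.7% in telencephalon and 63.0% in whole body. In Stxbp2 the isoform past 20 points was a retained intron on about 30 fragments in telencephalon and 13 in whole body.

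**Figure D4:**
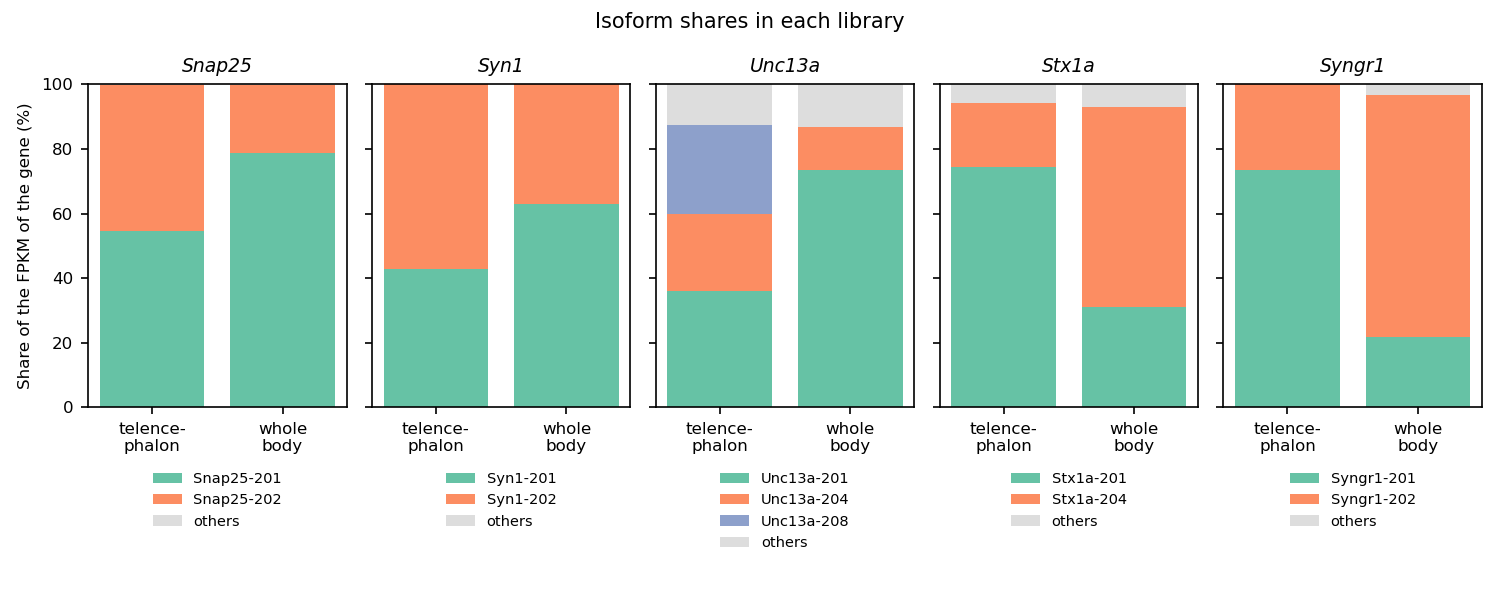
Share of the FPKM of each gene (%) held by its isoforms in the telencephalon library (left bar) and the whole-body library (right bar) for 5 genes; isoforms under 10% in both libraries are grouped as others. Stx1a-201 holds 74.4% in telencephalon and 31.0% in whole body, and Unc13a-208 appears in the telencephalon bar only.

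Promoter windows were searched for the RE1 element, the site bound by REST, a repressor known to keep neuronal genes silent outside neurons. The search took TTCAGCACC and GGACAG with a gap of 2 bases, on both strands, allowing 3 mismatches in all. RefSeq windows of GRCm38.p6, from 250 bases before to 50 after the annotated start, were at hand for 40 of the 51 genes. A match was found in 5 of these 40, against 365 of 27025 genes, or 1.35%, in the whole table. The 5 genes were Syn1 with 1 mismatch, Rph3a with 2, and Syt2, Syt6 and Unc13a with 3 each. A match is a likeness of letters, and binding was not measured.

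The windows of Syn1 and Rph3a are shown because they held the closest matches, in capitals. That of Syn1 lies at chrX:20920869-20921168 and that of Rph3a at chr5:121009489-121009788, both on the minus strand and written in the direction of the gene. The match in Syn1 reads in the gene's direction and begins 232 bases before the start, and that in Rph3a reads on the opposite strand:

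Syn1 window: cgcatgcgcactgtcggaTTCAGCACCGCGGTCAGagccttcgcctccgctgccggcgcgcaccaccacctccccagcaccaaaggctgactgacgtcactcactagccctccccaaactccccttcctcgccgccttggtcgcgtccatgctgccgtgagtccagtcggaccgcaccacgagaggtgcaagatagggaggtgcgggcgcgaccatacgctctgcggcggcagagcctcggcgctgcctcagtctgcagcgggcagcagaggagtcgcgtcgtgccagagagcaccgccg

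Rph3a window: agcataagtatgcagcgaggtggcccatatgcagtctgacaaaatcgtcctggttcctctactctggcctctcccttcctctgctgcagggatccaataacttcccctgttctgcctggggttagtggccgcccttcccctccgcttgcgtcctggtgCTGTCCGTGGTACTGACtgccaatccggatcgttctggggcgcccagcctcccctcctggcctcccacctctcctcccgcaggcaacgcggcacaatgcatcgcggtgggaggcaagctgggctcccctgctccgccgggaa

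Of the 5 genes with a match, Syn1, Rph3a, Syt6 and Unc13a passed 2-fold upward in telencephalon and Syt2 downward. The other higher genes with a window had no match in these 300 bases at this tolerance.

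Other genes of the release pathway were taken from 5 further lists, with 71 genes found. Among 62 measured genes 17 were higher and 9 lower by 2-fold or more (median log2 ratio 0.33), beside 9.39% higher, 21.2% lower and a median of -0.16 over all measured genes. Of the transporters that load transmitter into vesicles 4 of 5 measured genes were higher and none lower. Slc32a1, the vesicular GABA transporter, had 45.2 FPKM in the telencephalon library and 5.61 in whole body, 8.07-fold higher. Of the glutamate transporter genes Slc17a6 had 11.9 FPKM in the telencephalon library and 4.69 in whole body. Slc17a7 reached 11 FPKM in telencephalon, with 0.885 in whole body, and the monoamine transporter gene Slc18a2 was at 9.21 in telencephalon and 1.57 in whole body. Slc18a3, which loads acetylcholine and is named here after its values were seen, was at 1.14 FPKM in telencephalon against 3.05 in whole body.

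Of 17 further measured SNARE genes 3 were higher and 4 lower (median -0.33), the lower share being near that of all measured genes, 21.2%. Vamp8, a SNARE of exocrine, epithelial and blood cells, was at 2.26 FPKM in telencephalon against 50.1 in whole body, 22.1-fold lower. Stx2 (7.97 FPKM in telencephalon and 26.3 in whole body), Stx4a (9.57 in telencephalon and 23.2 in whole body) and Vamp5 (0.803 in telencephalon and 4.21 in whole body) were the other lower ones. Among the higher ones was the endosomal syntaxin gene Stx7 (34.1 FPKM in telencephalon and 15.6 in whole body).

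Of 14 other measured vesicle genes 3 were higher, beside 9.39% of all measured genes, and 3 lower, again near the 21.2% of all genes. Syngr2, the synaptogyrin of non-neuronal cells, had 4.73 FPKM in the telencephalon library and 29.6 in whole body, against the higher Syngr3. The secretory GTPase gene Rab27a reached 0.374 FPKM in telencephalon, with 3.09 in whole body, and Rab27b was at 0.132 in telencephalon and 1.36 in whole body. The higher ones were Scamp5 (30.6 FPKM in telencephalon, 3.05-fold), Syt16 (11.5 FPKM, 3.82-fold) and the vesicular amino acid transporter gene Slc6a17 (15.6 FPKM, 2.15-fold).

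Of 14 further active zone genes 4 were higher and 1 lower, beside 9.39% higher and 21.2% lower among all measured genes. Cadps, which primes dense-core vesicles, was at 15.5 FPKM in telencephalon against 5.85 in whole body. The liprin genes split, with Ppfia2 at 6.29 FPKM in telencephalon against 1.71 in whole body, Ppfia3 at 16.4 in telencephalon and 5.77 in whole body, and Ppfia4 at 1.75 in telencephalon and 6.65 in whole body. Rims4 had 5.08 FPKM in the telencephalon library and 1.52 in whole body. The list for retrieval of vesicle membrane after release also holds a syntaxin gene, which encodes a SNARE. Its genes were mostly within 2-fold, with 3 of 12 higher (Amph, Snap91 and Sh3gl2) and Bin1 lower. Their median was -0.05, near the -0.16 of all measured genes.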

How the data were processed

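The authors deposited FPKM values per gene (43437 genes) and per isoform (103615), with a column for each of 2 libraries. They used TopHat, Cufflinks and Cuffdiff with GRCm38, per the submitters' processing notes; the sources used here give neither versions nor the annotation release. Since FPKM are not counts, no count model was run. The labels name a TruSeq RNA v2 kit.

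The 51 genes were matched by symbol; of the pair of Pclo rows the one with the higher sum was used. Lengths, isoform names and coordinates came from GENCODE M21, which covered 101013 isoforms. Fragments were estimated from the FPKM steps of single-isoform genes; 90.8% of 4674 low values in telencephalon and 91.4% of 4380 in whole body lay within 0.1 of a whole fragment, a share that includes the genes fitted. Ratios took a pseudocount of 1 FPKM. Intervals of single genes take the relative width of the exact 95% binomial interval of the estimated fragments and are centred on the FPKM ratio. For pairs, the widths of both genes were carried to the log2 scale of FPKM + 1. They were combined there as the root of the summed squares and placed around the log2 change. The counting was tested on simulated data with counting error only, both libraries at the whole-body depth and changes well past 2-fold. That test does not cover genes near 2-fold or near 1 FPKM, the division of reads over isoforms or replicate error.

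The genes, lists, classes and pairs were chosen with earlier results of these data known. All 51 genes could be named, from pathway lists those past 2-fold, and from marker lists those a sentence needed; Slc18a3 and genes on the opposite strand were added. Python 3.11.15 with pandas 2.3.3 and scipy 1.17.1 was used. A planned comparison of paralog proteins was not made. Of 123 other list symbols 121 were found; the others are not analysed here. A few list genes are not reported here by name.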

Additional observations from a re-analysis of the deposited data

How the results depend on the processing

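The count of genes at least 2-fold higher ranged from 23 to 28 and that of lower genes from 3 to 5 over the alternatives, with 3 where 5 FPKM was required in either library, since fewer genes are then measured. Rescaling to TPM moved the median of all genes from -0.16 to -0.02; Syt3, Syt7, Rab3b and Rims3 then passed 2-fold. Syt3 also passed with a common upper quartile and with a pseudocount of 0.5 or 0.1 FPKM, and Syt7 with 0.1. No gene compared changed sign under these, isoforms of 300 bases or more included; where values moved, the cause was not tested. Ratios of fragments with 1 length per gene, an alternative chosen after seeing the data, gave 25 higher genes and 4 lower; Syt3 and Syngr1 passed 2-fold, Snap25 and Sv2c no longer did, and Stxbp5 changed sign (-0.04). The log2 change was then 1.55 for the ratio of Vamp2 to Vamp3 and 0.19 for Unc13a to Unc13b. The median of the 48 genes was 1.25 with a pseudocount of 0.1 FPKM. The neuronal median was 1.51 with a pseudocount of 0.1, 1.24 with no filter, 1.49 at 5 FPKM or more, 1.52 in TPM and 1.44 with a common upper quartile. With a pseudocount of 0.1 FPKM the log2 change of the ratio of Snap25 to Snap23 was 3.34 and that of Napb to Napa 1.87. Leaving out isoforms under 500 bases, chosen after seeing the data, gave 24 higher genes and 4 lower, as Syt2 then fell under 1 FPKM. No paired analysis was possible because each group has 1 library, and no library could be left out. On a 2 kb transcript, 3 fragments correspond to 0.0793 FPKM in telencephalon and 0.0611 in whole body, and Syt2 in telencephalon rests on about 9 fragments.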
